A study of Mus musculus with 15 samples.

Results

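The matrix metalloproteinases (MMPs), the tissue inhibitors of metalloproteinases (TIMPs) and the ADAMTS and ADAMTS-like proteins were followed in mouse liver tumours and normal liver. The family was picked with earlier results of these data known. Members were then taken by gene symbol: every Mmp gene with a number, Timp1 to Timp4, and every Adamts or Adamtsl gene. This gave 51 of the 23284 symbols in the count table, namely 23 Mmp, 4 Timp, 19 Adamts and 5 Adamtsl genes. Poly-A RNA was sequenced from 15 samples in 3 groups. The first group held 6 hepatocellular carcinomas from floxed control mice (Hgmb1fl/fl in the labels' spelling), called floxed tumours here. The second held 6 carcinomas from mice with the floxed allele and Albumin-Cre (Hgmb1Dhep), called Hmgb1-deleted tumours. All 12 tumours arose after diethylnitrosamine (DEN, 25 mg/kg on day 15 after birth), a liver carcinogen, followed by weekly carbon tetrachloride (CCl4, 0.5 ul/g) for 15 weeks from week 8, which injures the liver and leads to fibrosis. The third group held normal liver from 3 C57Bl/6 control mice, whose age and handling are not given in the labels. Albumin-Cre acts in the hepatocyte lineage, so stromal, immune and endothelial cells keep Hmgb1. The floxed and the deleted tumours share the floxed allele and both agents. Each tumour group differs from normal liver in genotype, treatment and tissue at once, and these cannot be told apart. The labels do not say whether tumours came from separate animals, and the tests rest on the spread over the samples as deposited, which may be partly technical.

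MMPs are zinc proteases that cut collagens, proteoglycans, elastin and many other proteins outside the cell. Most are made as inactive proforms, are switched on by other proteases such as plasmin or furin, and are held in check by TIMPs, which bind their active site. ADAMTS proteases are secreted relatives with thrombospondin repeats: some cut the proteoglycans versican and aggrecan, some trim procollagens, and ADAMTS13 cuts von Willebrand factor. ADAMTS-like proteins have the repeats but no protease domain. In the liver, stellate cells, macrophages and endothelial cells are known sources of many of these transcripts, and turnover of scar collagen in fibrosis is the setting in which they are best studied.

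Levels are read counts relative to library size (CPM), scaled with TMM factors over all libraries, and library totals lay between 18973246 and 30929442 counts. Levels are compared between groups for 1 gene, never between genes, because transcript length was not taken into account. The marker transcripts of hepatocytes (6 of 6 genes) were present in every group, at 68280 to 280500 CPM in sum. Hmgb1 itself was at 27.9 ± 3.36 CPM (SD, n = 6) in floxed tumours, 14.8 ± 2.76 CPM (n = 6) in Hmgb1-deleted tumours and 23.9 ± 6.07 CPM (n = 3) in normal liver. It was lower in deleted than in floxed tumours by an exact two-sided permutation test (log2 difference -0.89, adjusted p = 0.00649, with p = 0.00216 the smallest that 6 against 6 can give). In bulk tissue, fewer cells of a type and less RNA per cell cannot be told apart, here and in every result that follows.

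A block of 10 Mmp genes lies side by side on mouse chromosome 9. In the RefSeq order it runs from Mmp13 through Mmp12, Mmp1b, Mmp3, Mmp1a, Mmp10, Mmp8, Mmp27 and Mmp20 to Mmp7, between Dcun1d5 and Tmem123, with no other protein-coding RefSeq gene between them. RefSeq promoter windows of build GRCm38.p6 were in hand for 36 of the 51 members. The letters TGANTCA, which read the same on both strands and include the AP-1 element TGAGTCA well known from MMP promoters, were searched in the 250 bases before each start. They were found in 8 of 36 member genes (22.2%), against 2113 of 27025 genes with a window (7.82%). All 8 belong to the block of 10 (80.0%), and 0 of the 26 other members had a match. Below are the last 100 bases before the start for the block's 4 genes with enough counts to test and for Mmp1a, which had 0 counts. All lie on the plus strand, read 5′ to 3′, and capitals mark the match. The counts were made on mm9, so these positions describe the windows only. They are chr9:7272414-7272513 for Mmp13, chr9:7347274-7347373 for Mmp12 (the second of its starts), chr9:7691990-7692089 for Mmp7 (the first of its starts), chr9:7571296-7571395 for Mmp27 and chr9:7464041-7464140 for Mmp1a.
Mmp13: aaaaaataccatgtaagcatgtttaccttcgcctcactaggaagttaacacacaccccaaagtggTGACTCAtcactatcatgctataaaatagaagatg
Mmp12: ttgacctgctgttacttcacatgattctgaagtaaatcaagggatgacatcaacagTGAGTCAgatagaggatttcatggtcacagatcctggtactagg
Mmp7: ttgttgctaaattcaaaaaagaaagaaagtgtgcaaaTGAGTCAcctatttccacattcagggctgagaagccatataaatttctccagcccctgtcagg
Mmp27: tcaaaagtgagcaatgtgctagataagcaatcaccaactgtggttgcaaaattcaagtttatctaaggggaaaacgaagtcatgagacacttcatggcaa
Mmp1a: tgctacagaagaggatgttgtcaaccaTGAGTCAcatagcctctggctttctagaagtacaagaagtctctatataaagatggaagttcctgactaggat
The match began 35 bases before the start in Mmp13, 44 in Mmp12, 63 in Mmp7 and 73 in Mmp1a. Mmp27 and Mmp8 had none in the searched 250 bases, and the other start of Mmp12 and of Mmp7 had none either. A match describes letters, not binding, and its absence says only that these letters are not in the window.

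Of the 51 members, 33 had enough counts to be tested in at least 1 comparison, 31 of them in all 3 comparisons. The other 18 were tested in none, and 3 of these (Mmp1a, Mmp1b and Mmp20) had 0 counts in all 15 libraries. A count of 0 allows up to 3 counts, which is 0.110 to 0.169 CPM depending on the library. Mmp1a and Mmp1b are close paralogues, so reads that match both may have gone uncounted. The untested members with most counts were Adamtsl3 with 114, Mmp8 (neutrophil collagenase) with 96 and Adamts3 with 90 over all libraries. Mmp3 (stromelysin 1) had 50 counts and Timp4 had 16. Because the filter passes a gene that reaches its minimum in one group only, counts over tested members describe these libraries and are not evidence of a direction.

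Floxed tumours differed from normal liver in 14 of the 32 members tested (43.8%), against 48.7% of all 13784 genes tested, with edgeR's quasi-likelihood test and Benjamini-Hochberg adjustment over all genes. Of these, 12 were higher (37.5%, against 24.9% of all genes) and 2 were lower (6.25%, against 23.8%). The median log2 fold change was 1.04 over the tested members and 0.06 over all genes tested. Hmgb1-deleted tumours differed from the same normal livers in 13 of 32 members (40.6%, against 34.7% of all genes), 10 higher (31.2%, against 18.1%) and 3 lower (9.38%, against 16.6%), with a median of 0.99 against 0.05. Without any 1 of the normal livers the 13 fell to 5, and the count over all genes fell from 4787 to between 2113 and 3109. Both comparisons use the same 3 normal livers, so their values stand side by side and are not independent. Libraries of the 2 groups did not overlap for 15 members (46.9%) in the first comparison, against 46.3% of all genes, and for 12 (37.5%) in the second, against 37.6%.

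**Figure D1:**
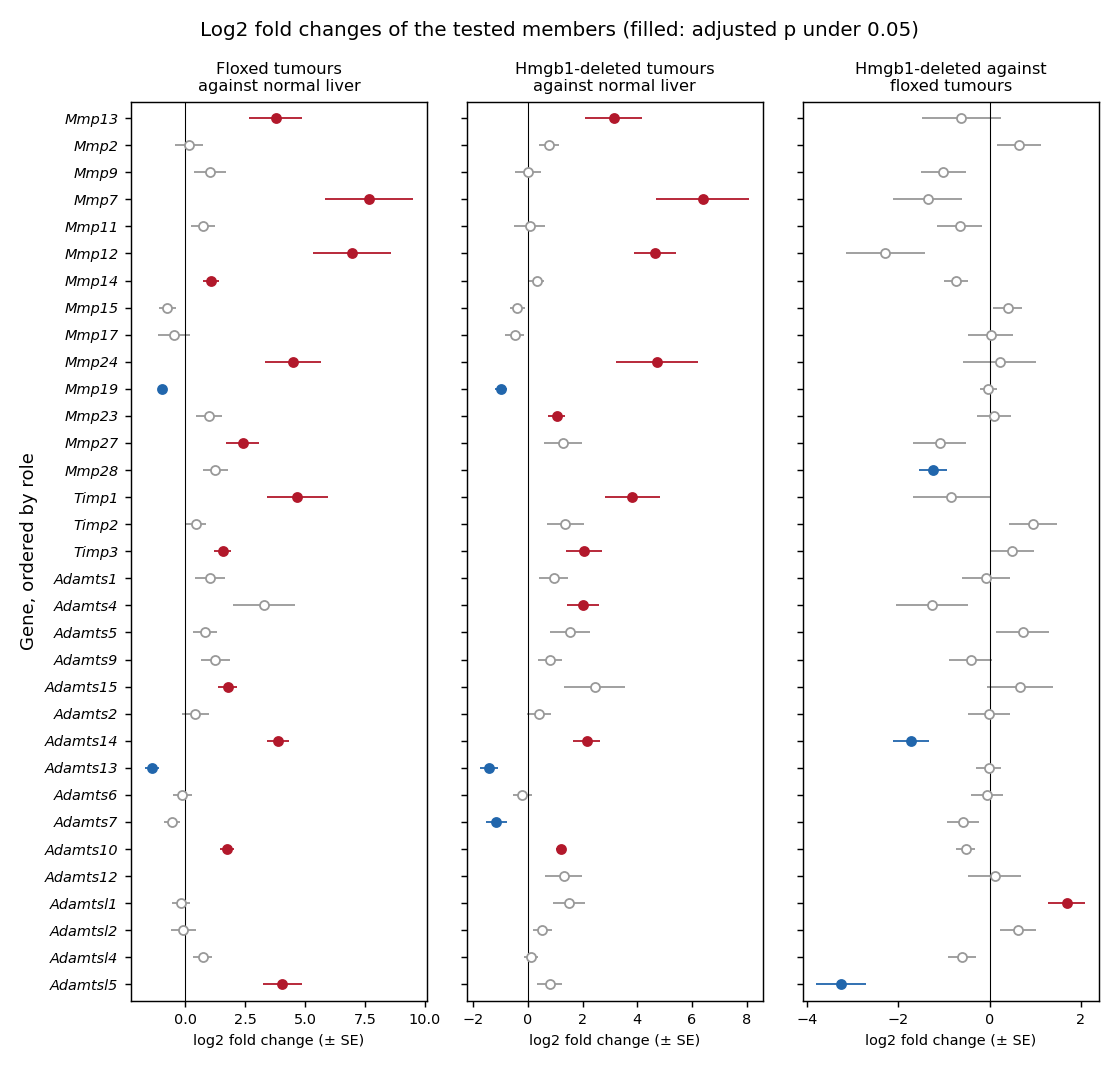
Log2 fold changes (x axis, ± SE) of the 33 members tested in at least 1 comparison, ordered by role, for floxed tumours against normal liver, Hmgb1-deleted tumours against normal liver, and deleted against floxed tumours. Filled points have an adjusted p under 0.05, red for higher and blue for lower: 12 higher and 2 lower, 10 higher and 3 lower, and 1 higher and 3 lower. A missing point was not tested, and the axes of the panels differ in range.

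Among the elastase and matrilysin genes, Mmp12 and Mmp7 were higher in both tumour groups than in normal liver. Mmp12, the macrophage elastase, was at 0.284, 0.570 and 0.345 CPM in the normal livers. Floxed tumours ranged from 6.04 CPM through a median of 12.9 to 216 CPM, and deleted tumours from 3.98 through 7.34 to 27.7 CPM. No tumour of either group came down to the level of any normal liver, and floxed tumour 5 stood far above the rest. The log2 fold change was 6.95 ± 1.62 (SE, adjusted p = 0.00567) in floxed and 4.64 ± 0.78 (adjusted p = 0.00343) in deleted tumours. Without floxed tumour 5 the first was 5.33 (adjusted p = 0.000462), and without deleted tumour 1 the second was 4.0 (adjusted p = 0.00111). With limma's voom in place of edgeR the call in floxed tumours ended (adjusted p = 0.0901). The 9 macrophage markers, all present in each group, summed to 183.4 to 658.1 CPM in floxed tumours, 272.1 to 499.3 CPM in deleted tumours and 202.7 to 263.2 CPM in normal liver, and their part in this result was not tested.

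Mmp7, matrilysin, an epithelial protease that cuts E-cadherin and Fas ligand among other proteins, had 0 counts in the 3 normal livers. Floxed tumours held 152 counts and lay between 0.159 and 3.17 CPM (median 0.765), while deleted tumours held 66 counts and lay between 0.0820 and 1.21 CPM (median 0.331). Against a limit of 3 counts over the normal group (0.0432 CPM), and with the lower 95% Poisson limit of the tumour counts, Mmp7 was at least 22.9-fold higher in floxed and at least 8.28-fold higher in deleted tumours, limits that cover counting error only. Floxed tumour 5 held 81 of the 152 counts and deleted tumour 1 held 33 of the 66, and without them the limits were 12.3-fold and 4.55-fold. The adjusted p was 0.00900 for floxed tumours. For deleted tumours it was 0.0244, and without any 1 normal liver it lay between 0.0568 and 0.0694, above the threshold of 0.05. The fitted log2 fold change in floxed tumours, 7.68, was 6.98 without floxed tumour 5. Mmp11, stromelysin 3, did not pass the test in either comparison, with means of 1.97 ± 1.24, 1.21 ± 0.939 and 1.2 ± 0.256 CPM in floxed, deleted and normal samples.

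Mmp13, the main interstitial collagenase of rodents, was higher in both tumour groups. The normal livers lay close together at 0.650, 0.611 and 0.640 CPM. Floxed tumours ran from 1.85 through 3.91 to 34.3 CPM and deleted tumours from 1.29 through 1.76 to 13.5 CPM. All 12 tumours were above all 3 normal livers, and floxed tumour 5 and deleted tumours 1 and 5 were the highest of their groups. Its log2 fold change was 3.78 ± 1.10 (adjusted p = 0.0169) in floxed and 3.13 ± 1.04 (adjusted p = 0.0426) in deleted tumours. Leaving out floxed tumour 5 brought the first to 2.47 (adjusted p = 0.00130), and leaving out any 1 normal liver gave an adjusted p of 0.0570 to 0.0628. The second lost its call without deleted tumour 1 (2.67, adjusted p = 0.0650), without deleted tumour 5 (2.64, adjusted p = 0.0599) and without any 1 normal liver (3.11 to 3.15, adjusted p 0.115 to 0.128).

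The gelatinases, which digest denatured collagen and basement membrane collagen, did not pass the test in any comparison. Mmp2 was at 3.62, 4.40 and 4.04 CPM in normal liver, at 1.15 to 11.5 CPM in floxed tumours (median 3.37) and at 3.36 to 11 CPM in deleted tumours (median 5.93). Mmp9 was at 1.14, 0.367 and 0.591 CPM in normal liver, at 0.477 to 3.17 CPM in floxed tumours (median 1.13) and at 0.372 to 1.08 CPM in deleted tumours (median 0.656). The groups overlapped for both genes. For Mmp2 the log2 fold change against normal liver was 0.14 ± 0.59 in floxed tumours (adjusted p = 0.863) and 0.76 ± 0.36 in deleted tumours (adjusted p = 0.123). The deleted value was past the threshold without deleted tumour 6 (0.90, adjusted p = 0.0464).

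Of the membrane-type MMPs, Mmp14 and Mmp24 were called. Mmp14 (MT1-MMP), a collagenase on the cell surface that also activates pro-MMP2, was at 42.2, 29.5 and 26.1 CPM in normal liver. Floxed tumours ran from 44.2 through 58.9 to 122 CPM, just clear of the highest normal liver, and deleted tumours from 23.4 through 41.4 to 56.3 CPM, overlapping it. On the log2 scale the fold change was 1.07 ± 0.32 (adjusted p = 0.0183) in floxed and 0.32 ± 0.28 (adjusted p = 0.388) in deleted tumours. The floxed call ended without normal liver 2 (1.0, adjusted p = 0.0740) and without normal liver 3 (0.91, adjusted p = 0.0841). Between the tumour groups the difference itself was -0.75 ± 0.26 (adjusted p = 0.101), so no difference was called, although DESeq2 called it (-0.78, adjusted p = 0.0389).

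Mmp24 (MT5-MMP), best known from the nervous system, had 2 counts in normal liver, 107 in floxed and 137 in deleted tumours. The ratio of levels was 28.6 (95% counting interval 7.72 to 239) and 33.3 (9.05 to 278), and adjusted p-values were 0.00915 and 0.0351. Deleted tumour 1, the highest at 3.37 CPM, held 92 of the 137 counts, and without it the second ratio was 13.5 (3.54 to 115). Deleted tumours lay between 0.123 and 3.37 CPM (median 0.364), floxed tumours between 0.199 and 1.73 CPM (median 0.504). Without any 1 normal liver the deleted call ended (adjusted p 0.0859 to 0.116). Mmp24 shares exon sequence on the opposite strand with BC029722 (9.13, 10.8 and 8.54 CPM in floxed, deleted and normal samples), and without a known strand setting their reads cannot be told apart. Mmp15 and Mmp17 were not called in any comparison; Mmp15 was at 68.0 ± 7.83 CPM in normal liver, 39.9 ± 19.5 CPM in floxed and 51.6 ± 17.3 CPM in deleted tumours.

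Mmp19 was the one MMP called lower in tumours than in normal liver. Its levels in normal liver were 86.8, 84.4 and 58.4 CPM, against 28.8 to 47.0 CPM in floxed tumours (median 40.2) and 27.0 to 51.3 CPM in deleted tumours (median 35.9). Every tumour was below every normal liver. This was a log2 fold change of -0.96 ± 0.18 (adjusted p = 0.00151) in floxed and -1.0 ± 0.22 (adjusted p = 0.00894) in deleted tumours. Mmp19, a basement membrane protease, overlaps Tmem198b on the opposite strand. Tmem198b had means of 3.00, 2.40 and 4.59 CPM in floxed, deleted and normal samples, was lower than normal liver in deleted tumours too (-0.91 ± 0.20, adjusted p = 0.00965), and its reads cannot be told apart from those of Mmp19 without a known strand setting.

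Mmp27 and Mmp23 were each called in 1 tumour group. Mmp27, the neighbour of Mmp20 in the chromosome 9 block, was at 0.284, 0.611 and 0.394 CPM in normal liver, at 0.517 to 5.33 CPM in floxed tumours (median 1.91) and at 0.186 to 1.78 CPM in deleted tumours (median 1.22). Only floxed tumour 6 lay within the normal range among floxed tumours, with a log2 fold change of 2.40 ± 0.68 (adjusted p = 0.0144) in floxed and 1.28 ± 0.71 (adjusted p = 0.179) in deleted tumours. The floxed call ended without normal liver 1 (2.15, adjusted p = 0.0652) or normal liver 3 (2.31, adjusted p = 0.0534), and the deleted value was past the threshold without deleted tumours 2 and 5 (1.76, adjusted p = 0.0106). Mmp23, which lacks the usual cysteine switch, rose from 1.06 ± 0.324 CPM in normal liver to 2.16 ± 0.529 CPM in deleted tumours (log2 fold change 1.05 ± 0.32, adjusted p = 0.0306), with no overlap. That call ended without normal liver 1 (0.88, adjusted p = 0.129) or 3 (0.96, adjusted p = 0.0982). In floxed tumours it was at 2.07 ± 1.41 CPM (0.97 ± 0.54, adjusted p = 0.158). The differences between tumour groups were -1.09 ± 0.58 (adjusted p = 0.272) for Mmp27 and 0.09 ± 0.38 (adjusted p = 0.915) for Mmp23.

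The block on chromosome 9 had 4 tested genes. In floxed tumours Mmp12, Mmp13, Mmp27 and Mmp7 were all higher than in normal liver, and in deleted tumours Mmp12, Mmp13 and Mmp7 were, where 24.9% and 18.1% of all genes tested were called higher. The block was picked as a group after its values were known. Its 6 untested genes hardly gave reads: Mmp1b, Mmp1a and Mmp20 had 0 counts, Mmp10 had 21, Mmp3 50 and Mmp8 96 over all libraries. Thus a TGANTCA match stood before genes with many counts and before genes with 0 counts. Mmp12 and Mmp1b share exon sequence on opposite strands, and without a known strand setting their reads cannot be told apart.

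**Figure D2:**
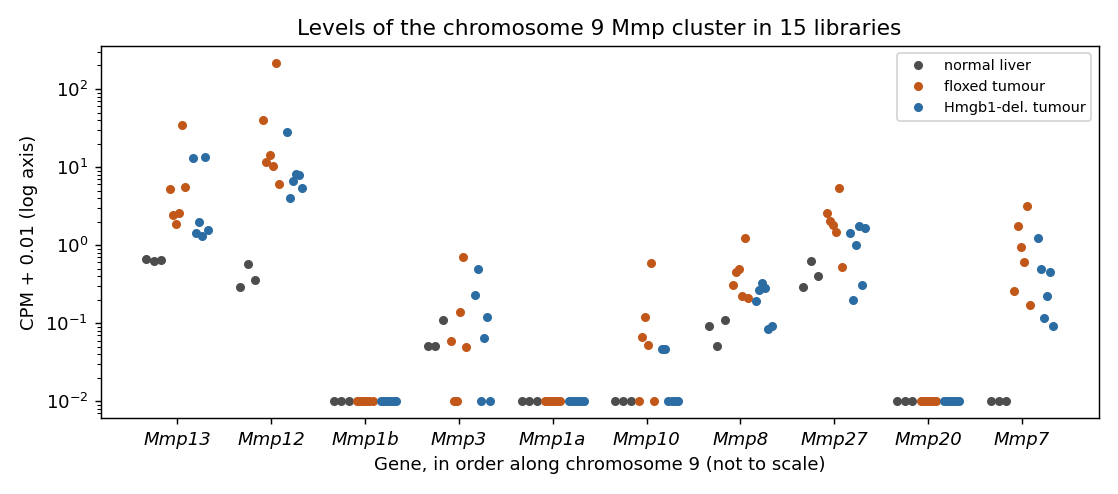
Levels (CPM + 0.01, log axis) of the 10 Mmp genes of the chromosome 9 block in their order, with 1 point per library in grey for normal liver, orange for floxed and blue for Hmgb1-deleted tumours. Points at the bottom are libraries with 0 counts, which all 15 libraries have for Mmp1b, Mmp1a and Mmp20. Tumours stand above normal liver for Mmp13, Mmp12 and Mmp7.

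Of the 3 tested inhibitors, Timp1 and Timp3 were higher in both tumour groups than in normal liver, and Timp2 was called in neither. Timp1, the inducible TIMP and a common marker of liver fibrosis, was at 0.162, 0.244 and 0.295 CPM in normal liver. It ran from 1.15 through 1.84 to 22.3 CPM in floxed tumours and from 0.820 through 1.87 to 10.4 CPM in deleted tumours, clear of normal liver in all 12. Fitted log2 fold changes were 4.68 ± 1.27 (adjusted p = 0.0119) and 3.81 ± 1.01 (adjusted p = 0.0186). Single libraries carried part of this: without floxed tumour 5 the first was 3.53 (adjusted p = 0.00416), and without deleted tumour 2 the second was 2.95 (adjusted p = 0.0113). Without normal liver 1 the floxed call ended (4.46, adjusted p = 0.0523), and without any 1 normal liver the deleted call did (adjusted p 0.0571 to 0.0797).

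Timp3, the TIMP that is bound to the matrix and also inhibits ADAMTS proteases and ADAM17, was at 28.3, 24.5 and 20.2 CPM in normal liver. Floxed tumours ran from 42.2 through 61.4 to 129 CPM and deleted tumours from 41.3 through 53.9 to 223 CPM. Again all 12 tumours were higher than all normal livers, with deleted tumours 2 (172 CPM) and 5 (223 CPM) far above their group. The log2 fold change was 1.56 ± 0.36 (adjusted p = 0.00496) in floxed and 2.04 ± 0.66 (adjusted p = 0.0385) in deleted tumours. Without deleted tumours 2 and 5 the latter was 0.98 (adjusted p = 0.00951), without deleted tumour 2 alone 1.8 (adjusted p = 0.0602), and without any 1 normal liver its adjusted p was 0.104 to 0.118. Timp3 lies within Syn3 on the opposite strand, and Syn3 was at 3.23, 3.57 and 5.68 CPM in floxed, deleted and normal samples, lower in floxed tumours (-0.81) where Timp3 was higher. Without a known strand setting, reads of Timp3 and Syn3 cannot be told apart. Of the other synapsin genes listed as hosts of TIMP genes, Syn1 was called higher in floxed tumours (1.36 ± 0.51, adjusted p = 0.0456). In deleted tumours Syn1 was not called (0.40 ± 0.55, adjusted p = 0.589).

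Timp2, the constitutive TIMP that takes part in activating pro-MMP2, did not pass the test in either comparison. Normal livers were at 16.9, 19.4 and 15.2 CPM, floxed tumours at 13.7 to 52.4 CPM (median 18.1) and deleted tumours at 14.7 to 115 CPM (median 23.9). Log2 fold changes were 0.43 ± 0.41 (adjusted p = 0.403) in floxed and 1.37 ± 0.67 (adjusted p = 0.134) in deleted tumours, the latter 0.26 (adjusted p = 0.343) without deleted tumours 2 and 5 and past the threshold without deleted tumours 3, 4 and 6 (2.04, adjusted p = 0.0133). Deleted tumours 2 and 5 were the highest of their group for Timp2, Timp3 and Adamtsl1. Timp4 was not tested.

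**Figure D3:**
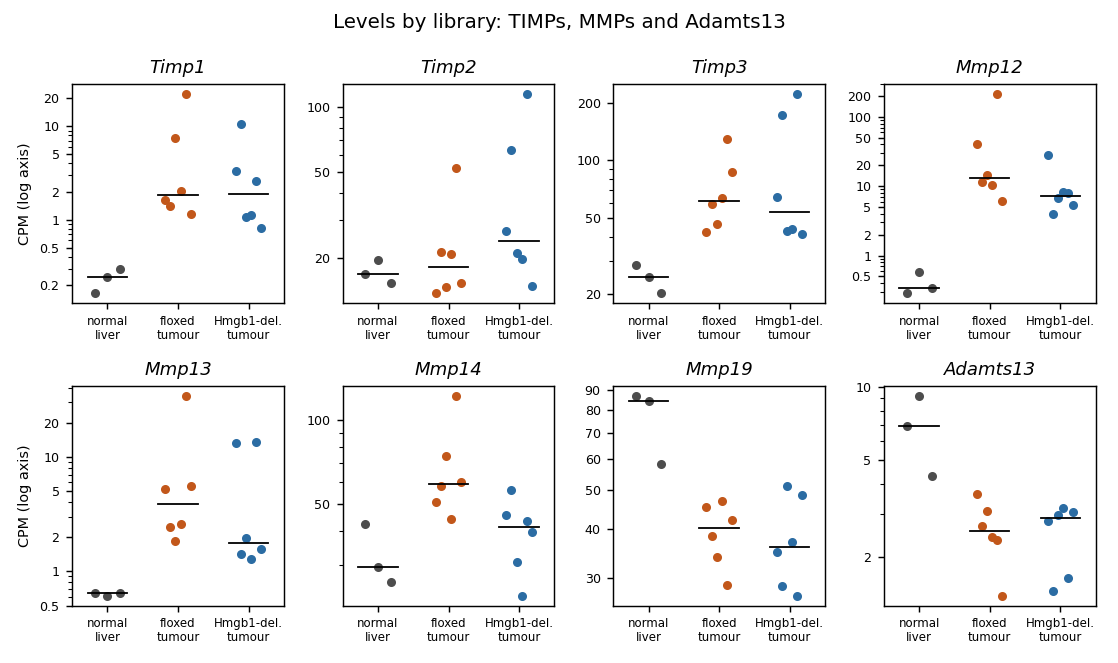
Levels (CPM, log axis) of Timp1, Timp2, Timp3, Mmp12, Mmp13, Mmp14, Mmp19 and Adamts13 in each library, with normal liver in grey, floxed tumours in orange and Hmgb1-deleted tumours in blue, and a black line at each group's median. All 12 tumours lie above the 3 normal livers for Timp1, Timp3, Mmp12 and Mmp13 and below them for Mmp19 and Adamts13, whereas the groups overlap for Timp2.

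Of the ADAMTS proteoglycanases, which cut versican and aggrecan, 5 of 7 were tested and each tumour group had 1 call. Adamts15 was at 0.975, 1.02 and 0.936 CPM in normal liver and at 1.35 to 5.22 CPM (median 3.41) in floxed tumours, all higher, with a log2 fold change of 1.76 ± 0.41 (adjusted p = 0.00531). In deleted tumours it was 2.44 ± 1.13 (adjusted p = 0.116), with deleted tumour 1 at 22.5 CPM and the other 5 at 0.903 to 2.71 CPM. Adamts4 was at 0.731, 0.367 and 0.148 CPM in normal liver, at 0.618 to 18.4 CPM (median 1.17) in floxed and at 0.820 to 2.74 CPM (median 1.59) in deleted tumours. The deleted tumours did not overlap normal liver (2.0 ± 0.59, adjusted p = 0.0271), while the floxed value was 3.29 ± 1.31 (adjusted p = 0.0588). Without floxed tumour 5, at 18.4 CPM, the floxed value was smaller and past the threshold (1.53, adjusted p = 0.0429), and without floxed tumour 2 it was also past it (3.48, adjusted p = 0.0456). The deleted call ended without normal liver 2 (1.91, adjusted p = 0.101) or 3 (1.61, adjusted p = 0.0870), and without normal liver 1 it was 2.67 (adjusted p = 0.0382).

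Adamts1, an inflammation-induced member of this group, was at 11.4, 15.0 and 9.45 CPM in normal liver, 11.8 to 73.8 CPM (median 14.2) in floxed and 8.34 to 39.6 CPM (median 20.9) in deleted tumours. The groups overlapped, and the log2 fold changes of 1.04 (adjusted p = 0.185) and 0.94 (adjusted p = 0.179) did not pass. Adamts5 and Adamts9 did not pass either.

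The procollagen N-proteinase Adamts14, which trims the amino end of fibrillar procollagens, had the smallest adjusted p of all members against normal liver in floxed tumours. Normal livers were at 1.42, 1.83 and 1.43 CPM, floxed tumours at 12.3 to 48.1 CPM (median 19.5) and deleted tumours at 3.77 to 14.4 CPM (median 5.19). All tumours were above all normal livers. The difference was 3.87 ± 0.45 on the log2 scale (adjusted p = 8.85e-05) in floxed and 2.15 ± 0.49 (adjusted p = 0.0104) in deleted tumours, the latter with an adjusted p of 0.0510 without normal liver 1. Adamts2, with the same activity, did not pass (6.66 ± 5.83, 6.45 ± 3.22 and 5.02 ± 1.87 CPM in floxed, deleted and normal samples).

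Adamts10, a protease linked to fibrillin microfibrils, rose in both tumour groups. It was at 9.42, 12.8 and 9.70 CPM in normal liver, at 22.7 to 60.7 CPM (median 32.6) in floxed and at 19.9 to 29.3 CPM (median 23.5) in deleted tumours, with no overlap. Its log2 fold changes were 1.74 ± 0.29 (adjusted p = 0.000920) and 1.21 ± 0.18 (adjusted p = 0.00217).

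Adamts13, made mainly by hepatic stellate cells and secreted into blood, fell in both tumour groups. Normal livers were at 6.91, 9.21 and 4.33 CPM, floxed tumours at 1.39 to 3.63 CPM (median 2.56) and deleted tumours at 1.45 to 3.17 CPM (median 2.90). All tumours were below all normal livers. Against normal liver the log2 fold change was -1.39 ± 0.31 (adjusted p = 0.00405) in floxed and -1.42 ± 0.31 (adjusted p = 0.00915) in deleted tumours, the latter -1.14 (adjusted p = 0.0589) without normal liver 2. The 8 stellate cell and myofibroblast markers summed to 121.9 to 305.8 CPM in floxed, 98.04 to 157.3 CPM in deleted and 97.64 to 139.7 CPM in normal samples. The list moved both ways: Lrat, a marker of quiescent stellate cells, had means of 10.1, 6.92 and 21.0 CPM in floxed, deleted and normal samples (-1.05 ± 0.52, adjusted p = 0.115, and -1.58 ± 0.39, adjusted p = 0.0138), whereas Acta2 and Tagln were higher in both tumour groups. Reln had the means 84.7, 38.3 and 60.9 CPM and made up much of the sum. Their part in the fall of Adamts13 was not tested.

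Adamts7, a protease of cartilage oligomeric matrix protein, was lower than in normal liver in deleted tumours, with means of 9.59 ± 4.50, 6.23 ± 3.06 and 14.2 ± 3.62 CPM in floxed, deleted and normal samples (log2 fold change -1.15 ± 0.39, adjusted p = 0.0436). The groups overlapped, and the call ended under 12 of 21 alternatives, among them upper-quartile scaling (-0.99, adjusted p = 0.0812), without any 1 normal liver (-1.35 to -1.01, adjusted p 0.0647 to 0.151) and without deleted tumour 1, 3, 4 or 6 (-1.13 to -1.0, adjusted p 0.0519 to 0.0779). In floxed tumours it was -0.55 (adjusted p = 0.201), and -0.83 (adjusted p = 0.0179) without floxed tumour 5. Adamts7 overlaps Tbc1d2b on the opposite strand (74.2, 38.9 and 53.3 CPM). Adamts6 and Adamts12 were not called.

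Hmgb1-deleted tumours differed from floxed tumours in 4 of the 33 members tested (12.1%), against 7.78% of all 13433 genes tested: 1 was higher (Adamtsl1) and 3 were lower (Adamtsl5, Adamts14 and Mmp28). Of all genes tested, 4.45% were called higher and 3.33% lower. Libraries did not overlap for 2 members, Adamtsl5 and Adamtsl1, against 4.93% of all genes. The members' median log2 fold change was -0.09 and that of all genes 0.02, and scaled to library totals instead they were 0.01 and 0.20. None of the 3 tested TIMPs passed: Timp1 was at -0.85 ± 0.84 (adjusted p = 0.583), Timp2 at 0.95 ± 0.52 (adjusted p = 0.289) and Timp3 at 0.49 ± 0.47 (adjusted p = 0.568). The collagenase and elastase did not pass either, with Mmp13 at -0.62 ± 0.86 (adjusted p = 0.712) and Mmp12 at -2.28 ± 0.87 (adjusted p = 0.128). Without floxed tumour 5 these became 0.66 (adjusted p = 0.619) and -0.70 (adjusted p = 0.487).

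Adamtsl5, an ADAMTS-like protein that binds fibrillin microfibrils, differed most. It was at 3.65 to 36.1 CPM (median 9.36) in floxed tumours, at 0.805 to 2.44 CPM (median 1.21) in deleted tumours and at 0.447, 1.18 and 0.837 CPM in normal liver. The lowest floxed tumour was above the highest deleted tumour, while deleted tumours overlapped normal liver. The log2 fold change between tumour groups was -3.25 ± 0.55 (adjusted p = 0.00624), and it stayed called under all 23 alternatives tried. Against normal liver it was 4.05 ± 0.81 (adjusted p = 0.00249) in floxed and 0.80 ± 0.46 (adjusted p = 0.198) in deleted tumours. Floxed tumour 6 was the highest, and without it the tumour difference was -2.66 (adjusted p = 0.00885) and the floxed value against normal liver 3.46 (adjusted p = 0.00107).

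Adamts14 was lower in deleted than in floxed tumours, by -1.72 ± 0.40 on the log2 scale (adjusted p = 0.0207). The groups overlapped through deleted tumour 6, at 14.4 CPM, and floxed tumour 5, at 12.3 CPM. In deleted tumours it was still above every normal liver. Without deleted tumours 2 and 5 the call ended (-1.52, adjusted p = 0.0580).

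Mmp28 (epilysin), a protease of skin and other epithelia, was at 0.393 to 0.816 CPM (median 0.553) in floxed and at 0.161 to 0.410 CPM (median 0.229) in deleted tumours, against 0.366, 0.326 and 0.0492 CPM in normal liver. Only the highest deleted tumour, number 5, reached into the floxed range. The tumour groups differed by a log2 fold change of -1.24 ± 0.31 (adjusted p = 0.0290). The counts were low, and the call ended on library totals (-1.02, adjusted p = 0.103), without floxed tumour 3 or 6 or without deleted tumour 2, 3, 4 or 6 (-1.24 to -1.13, adjusted p 0.0521 to 0.0669). Mmp28 overlaps 1700020L24Rik on the opposite strand, whose means were 0.607, 0.341 and 0.198 CPM in floxed, deleted and normal samples.

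Adamtsl1 (punctin), a matrix protein without protease activity, was the one member that was higher. Floxed tumours ran from 0.447 through 0.776 to 1.07 CPM and deleted tumours from 1.19 through 1.78 to 5.78 CPM, with no overlap, and normal livers were at 0.731, 1.34 and 0.640 CPM. The log2 fold change was 1.68 ± 0.41 (adjusted p = 0.0247). It was 0.96 (adjusted p = 0.0772) without deleted tumours 2 and 5, 1.56 (adjusted p = 0.0513) without floxed tumour 1 and 1.69 (adjusted p = 0.0514) without floxed tumour 3. Against normal liver, deleted tumours were at 1.5 ± 0.57 (adjusted p = 0.0647). This value was past the threshold without deleted tumour 6 (1.65, adjusted p = 0.0461) and without deleted tumours 3, 4 and 6 (1.97, adjusted p = 0.0204). It also was with DESeq2 (1.49, adjusted p = 0.0240), all 15 samples in 1 fit (1.48, adjusted p = 0.0348) and upper-quartile factors (1.67, adjusted p = 0.0491). With the replicate number as a block it was 1.23 (adjusted p = 0.0468).

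**Figure D4:**
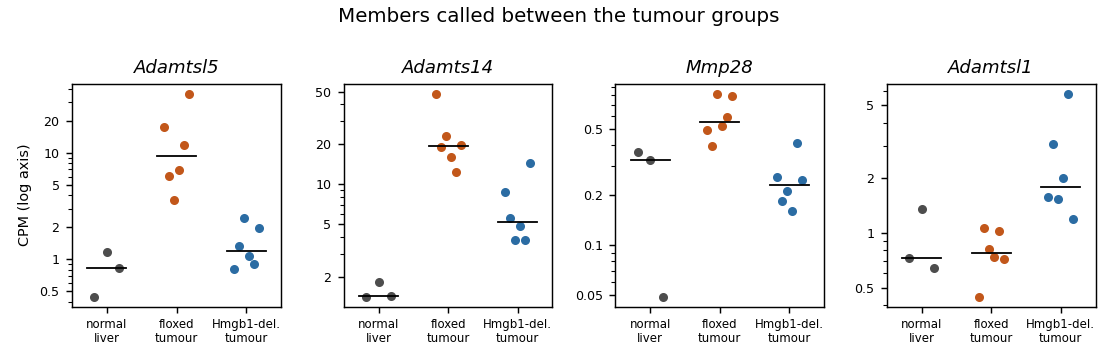
Levels (CPM, log axis) of the 4 members called between the tumour groups, Adamtsl5, Adamts14, Mmp28 and Adamtsl1, in each library of normal liver (grey), floxed tumours (orange) and Hmgb1-deleted tumours (blue), with a black line at the group median. The tumour groups do not overlap for Adamtsl5 and Adamtsl1, and they overlap for Adamts14 and Mmp28.

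One library stood apart for these genes. Floxed tumour 5 was the highest of all 15 libraries for 19 of the 33 tested members (57.6%), against 1862 of 13433 genes tested (13.9%). Among them were Mmp2, Mmp7, Mmp9, Mmp12, Mmp13, Mmp14, Timp1, Adamts1 and Adamts4. In that library the stellate cell and myofibroblast markers summed to 305.8 CPM, against 121.9 to 227.3 CPM in the other floxed tumours. Among them, Pdgfrb was at 82.1 CPM (9.66 to 18.4 CPM in the others), and Acta2, Des, Lrat and Rgs5 were also above the others. Reln (86.6 CPM, 49.5 to 135 CPM in the others) and Tagln (32.8 CPM, 18.1 to 35.5 CPM) lay within their range. Cnn1 (0.0392 CPM, 0.218 to 0.994 CPM) lay below it. The 9 macrophage markers summed to 658.1 CPM against 183.4 to 392.9 CPM, of which Gpnmb made up 249 CPM (2.47 to 58.0 CPM in the others), while Clec4f (29.2 CPM, 24.5 to 78.9 CPM in the others) and Vsig4 (16.6 CPM, 7.83 to 31.4 CPM) lay within the range of the others and Marco (0.784 CPM, 1.04 to 8.69 CPM) below it. In the same library the 7 endothelial markers summed to 435.8 CPM against 161.2 to 206.6 CPM, with Tek (13.1 CPM, 7.60 to 14.8 CPM) within the range of the others. The 6 cholangiocyte markers summed to 84.02 CPM against 14.24 to 55.35 CPM. Sox9 made up 61.3 CPM of that, and Cftr (0.862 CPM, 0.0398 to 1.12 CPM) lay within the range of the others. The 7 lymphocyte markers, at 7.132 CPM against 4.334 to 34.3 CPM, were within it too. Hepatocyte markers summed to 107600 CPM there against 160100 to 280500 CPM, of which Alb made up 88562 CPM. Alb, Apoa1, Ttr, Hnf4a and Serpina1a lay below the other floxed tumours. Cps1 (338 CPM, 335 to 628 CPM in the others) lay within their range. None of these markers was at 0 in every library, and their part in the results was not tested. The 8 neutrophil markers summed to 5.249 to 39.4 CPM in floxed tumours, 10.5 to 18.39 CPM in deleted tumours and 3.829 to 5.322 CPM in normal liver, where Ngp and Mpo were at 0. Floxed tumour 5, at 23.36 CPM, lay within the range of the other floxed tumours.

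**Figure D5:**
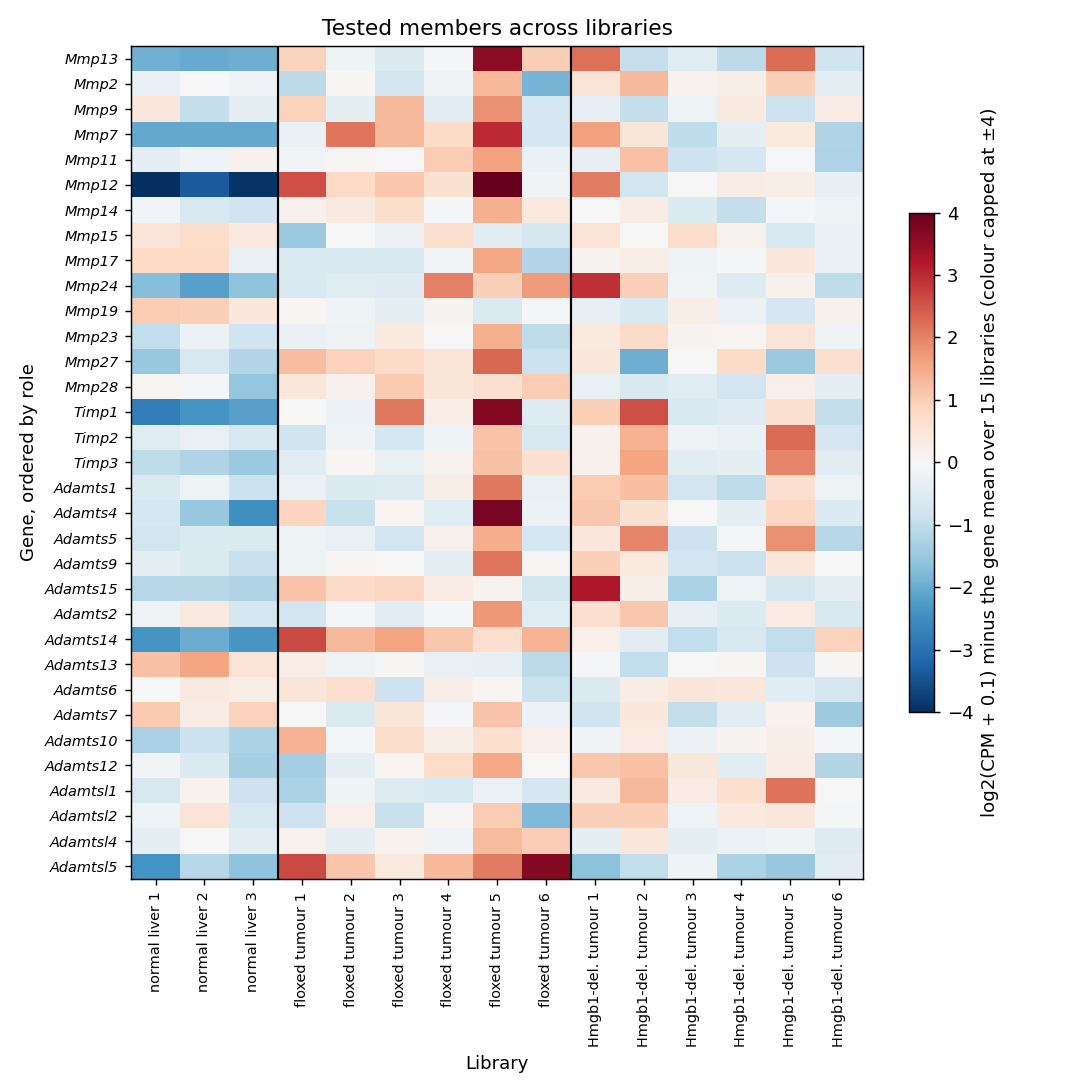
The 33 tested members (y axis, by role) in the 15 libraries (x axis, normal liver, floxed and Hmgb1-deleted tumours), coloured by log2(CPM + 0.1) minus the gene's mean over all libraries, red for higher and blue for lower, with the colour capped at 4 either way. Floxed tumour 5 is the reddest column, and it is the highest library for 19 of the 33 members.

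The systems that switch MMPs on were also measured, from lists chosen for their roles. In the plasminogen system, 3 of 6 tested genes were called higher in floxed tumours and 2 in deleted tumours than in normal liver. None was called lower, and median log2 fold changes over the tested genes were 1.47 and 1.54. Of all genes tested, 24.9% and 18.1% were called higher, and their medians were 0.06 and 0.05. Plg, plasminogen itself, was not called, but every tumour was below every normal liver. Floxed tumours lay at 1042.5 to 2821.2 CPM, deleted tumours at 950.9 to 2829.5 CPM and normal livers at 3196 to 3289.9 CPM. Its log2 fold changes were -0.65 ± 0.29 (adjusted p = 0.0831) and -0.85 ± 0.34 (adjusted p = 0.0755). Plat (tissue plasminogen activator) was at 13.0 ± 12.9, 6.97 ± 4.09 and 0.765 ± 0.254 CPM in floxed, deleted and normal samples (4.10 ± 0.78, adjusted p = 0.00182, and 3.22 ± 0.62, adjusted p = 0.00564). Plaur, the urokinase receptor, was at 7.14 ± 6.37, 6.15 ± 4.64 and 0.503 ± 0.225 CPM (3.82 ± 0.72, adjusted p = 0.00172, and 3.63 ± 0.82, adjusted p = 0.0101). Plau, urokinase, was called in floxed tumours only (2.44 ± 0.90, adjusted p = 0.0457, against 3.25 ± 1.18, adjusted p = 0.0565, in deleted tumours). Floxed tumour 5 was at 30.3 CPM of Plau and deleted tumour 5 at 58.4 CPM, and without them the values were 1.31 (adjusted p = 0.0122) and 1.83 (adjusted p = 0.0294). The deleted Plau value was also past the threshold without deleted tumour 3 (3.46, adjusted p = 0.0448) or 6 (3.47, adjusted p = 0.0427). The floxed Plau call ended without floxed tumour 1 or 4 or any 1 normal liver (2.24 to 2.56, adjusted p 0.0508 to 0.133). Without floxed tumour 5, Plat was 3.34 and Plaur 3.17, both still called, and without normal liver 1 the deleted call of Plaur ended (3.34, adjusted p = 0.0514). Between the tumour groups these 3 genes were not called (Plat at -0.86 ± 0.53, adjusted p = 0.350, Plau at 0.83 ± 0.88, adjusted p = 0.609, and Plaur at -0.18 ± 0.57, adjusted p = 0.891).

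The proprotein convertases and other activators moved both ways. Of 8 genes, St14 and Tmprss2 were higher and Klkb1, Pcsk6 and Pcsk7 lower in floxed tumours than in normal liver, and St14 and Tmprss2 were higher and Furin and Pcsk6 lower in deleted tumours. The shares of all genes tested were 24.9% higher and 23.8% lower in floxed tumours, and 18.1% and 16.6% in deleted tumours. Between the tumour groups, 4.45% of all genes were called higher and 3.33% lower. St14 (matriptase), a serine protease of epithelial surfaces, had log2 fold changes of 3.43 ± 0.54 (adjusted p = 0.000580) and 3.48 ± 0.76 (adjusted p = 0.00917). Furin, which activates Mmp14 inside the cell, had -0.41 ± 0.31 (adjusted p = 0.284) in floxed and -0.82 ± 0.23 (adjusted p = 0.0237) in deleted tumours. Pcsk6 (PACE4) was the one gene of this list called between the tumour groups, higher in deleted tumours (0.68 ± 0.19, adjusted p = 0.0473), and this call ended when any 1 tumour was left out other than floxed tumour 3 or deleted tumour 1 (0.56 to 0.71, adjusted p 0.0526 to 0.110). With single libraries left out, the call of Furin ended without any 1 normal liver (adjusted p 0.0532 to 0.0901), and that of Pcsk6 in deleted tumours against normal liver ended without normal liver 1 or 2 (0.0752 and 0.0805). Furin was past the threshold in floxed tumours without floxed tumour 6 (-0.65, adjusted p = 0.0466), and Klkb1 in deleted tumours without deleted tumour 5 (-1.41, adjusted p = 0.0351). Tmprss2 lost its call without normal liver 1 or 2 and without several single tumours in both comparisons (adjusted p 0.0631 to 0.189).

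Among 8 other inhibitors and clearance receptors, 4 were lower in both tumour groups: Reck, Lrp1, Tfpi2 and Col18a1. Of all genes tested, 23.8% were called lower in floxed and 16.6% in deleted tumours. Reck, a membrane-anchored MMP inhibitor, was at 1.65 ± 0.696, 1.76 ± 0.373 and 4.73 ± 0.400 CPM in floxed, deleted and normal samples (-1.50 ± 0.33, adjusted p = 0.00409, and -1.41 ± 0.23, adjusted p = 0.00331). Lrp1, which takes up protease and inhibitor complexes from the cell surface, had -1.77 ± 0.17 (adjusted p = 2.98e-05) and -1.54 ± 0.28 (adjusted p = 0.00424). A2m, a plasma protease inhibitor, was higher in floxed tumours (5.27 ± 1.44, adjusted p = 0.0126), 4.64 without floxed tumour 6 (adjusted p = 0.0161) and not called without normal liver 1 or 2 (5.09 and 5.10, adjusted p 0.0533 to 0.0538). Floxed tumours 5 and 6 were at 15.8 and 17.2 CPM of A2m and the other floxed tumours at 0.871 to 1.60 CPM. Normal livers were at 0.122 to 0.246 CPM, and leaving out floxed tumour 6 still kept floxed tumour 5. The call of Tfpi2 in deleted tumours ended without normal liver 1 or 2 (adjusted p 0.0567 and 0.0614). None of the 8 was called between the tumour groups, where A2m (-3.17 ± 1.0, adjusted p = 0.0711) was past the threshold without deleted tumour 3 (-4.07, adjusted p = 0.0431).

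Of 9 sheddases and inducers of MMPs, Cd44, Adam8, Adam15 and Bsg were higher and Adam9 lower in floxed tumours, and Cd44, Adam8, Adam15 and Adam12 were higher in deleted tumours. The shares of all genes tested were 24.9% higher and 23.8% lower in floxed tumours, and 18.1% and 16.6% in deleted tumours. Between the tumour groups they were 4.45% higher and 3.33% lower. Cd44, a hyaluronan receptor that docks MMPs at the cell surface, had log2 fold changes of 1.98 ± 0.32 (adjusted p = 0.000632) and 1.71 ± 0.41 (adjusted p = 0.0127), the latter not called without normal liver 2 (adjusted p = 0.0570). Adam8 in floxed tumours was 3.31, and 2.16 without floxed tumour 5 (adjusted p = 0.00231). Without any 1 normal liver the floxed calls of Adam8 and Bsg and the deleted call of Adam12 ended (adjusted p 0.0624 to 0.146), and without normal liver 1 or 3 the deleted call of Adam15 did (0.0583 and 0.0669). Of 16 tested substrates, 3 were called higher (Spp1, Vcan and Col4a1) and 1 lower (Lamb3) in floxed tumours. In deleted tumours 2 of 16 were called higher (Spp1 and Col1a2). Among all genes tested these shares were 24.9%, 23.8% and 18.1%, each above that of the substrates. Spp1 (osteopontin), cut by several MMPs, had 4.0 ± 0.95 (adjusted p = 0.00607) and 4.65 ± 1.30 (adjusted p = 0.0225). Deleted tumour 2 was at 6024 CPM of Spp1 and the other deleted tumours at 195 to 1126 CPM, without it the value was 3.28 (adjusted p = 0.0101), and without any 1 normal liver the call ended (adjusted p 0.0725 to 0.0880). The calls of Col4a1, Lamb3 and Col1a2 also ended without any 1 normal liver (adjusted p 0.0522 to 0.153), and without floxed tumour 5 Col4a1 was 1.02 (adjusted p = 0.0227) rather than 1.63, and Col1a2 in floxed tumours was past the threshold (0.77, adjusted p = 0.0333). Between the tumour groups Fn1, fibronectin, was the one substrate called, lower in deleted tumours (-0.80 ± 0.21, adjusted p = 0.0337) without overlap of the groups, and that call ended without floxed tumour 1, 3 or 6 or deleted tumour 1, 2, 3 or 4 (-0.82 to -0.67, adjusted p 0.0519 to 0.0646).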

How the data were processed

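Libraries were TruSeq RNA, from column-purified, DNase-treated and poly-A-selected RNA, per the labels' protocols. The authors deposited unnormalized counts of reads for each gene symbol in 15 libraries. The submitters' processing notes name HTSeq 0.6.1, TopHat2 2.1.0, Bowtie2 2.2.4, bcl2fastq 1.8.4 and build mm9. The counting settings, annotation and strand mode are not given in the sources used, so overlapping genes cannot be told apart. Counts were analysed in R 4.3.3 with edgeR 4.0.16: filterByExpr, TMM factors and the robust quasi-likelihood test on the 2 groups compared, with Benjamini-Hochberg adjustment over all genes at 0.05 and no fold threshold. Levels are CPM scaled by TMM, as mean ± SD, and SE comes from the F statistic. The script, tested on simulated data, recovered 52% of 2-fold and 89% of 4-fold changes among 13380 genes for deleted against floxed tumours, 28% and 88% among 13681 for floxed tumours against normal liver, and 34% and 81% among 13652 for deleted tumours against normal liver. Of the calls made there, 9.03%, 4.92% and 8.73% were false, at an adjusted p threshold of 0.05. The simulation changed 200 genes, as many up as down, with negative binomial spread and no library set apart. In the data, 6714 and 4787 genes were called against normal liver, so these rates need not carry over. Hmgb1 was tested on log2(CPM + 1). Alternatives used limma 3.58.1 (voom), DESeq2 1.42.0, other scalings, filters and libraries left out; those leaving out deleted tumours 3, 4 and 6, or 2 and 5, and the unpaired fit of numbers 1 to 3 were chosen after seeing the data. Members and lists were chosen with earlier results of these data known. Named members are Timp1 to Timp3, Mmp2, Mmp9, Mmp12, Mmp13, Mmp14, Adamts1, Adamts13 and all called members; of each other list, up to 4 with the smallest p. Others are named after their values were seen. Overlapping exons came from GENCODE, and promoter windows from RefSeq. Of the plasminogen list, 1 gene is not reported here.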

Additional observations from a re-analysis of the deposited data

Results flagged for a closer look

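In groups of 6 tumours, 1 library was set apart from the others by a gap that exceeded Dixon's critical value in 14 of the 46 groups of values examined. These were both tumour groups of the 23 named members, 13 of which were named because they were called. Chance gives about 1 in 20 for independent normal values, which these CPM of genes from the same libraries are not, so that rate is no yardstick for the tally. Floxed tumour 5 accounted for 8 of the 14, Hmgb1-deleted tumour 1 for 4, and deleted tumour 2 and floxed tumour 1 for 1 each. In floxed tumour 5, Mmp12 was at 216 CPM (the next floxed tumour at 40.4), Mmp13 at 34.3 (5.53), Timp1 at 22.3 (7.51), Timp2 at 52.4 (21.3), Adamts1 at 73.8 (20.4), Adamts4 at 18.4 (2.34), Mmp2 at 11.5 (4.78) and Mmp23 at 4.78 (2.29). In deleted tumour 1, Adamts15 was at 22.5 CPM (the next deleted tumour at 2.71), Mmp12 at 27.7 (8.18), Mmp24 at 3.37 (0.780) and Mmp7 at 1.21 (0.483). Timp1 in deleted tumour 2 was at 10.4 CPM (3.33), and Adamts14 in floxed tumour 1 was at 48.1 CPM (23.2). The cause was not tested.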

How the results depend on the processing

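Of 31 called member results, 11 kept their call under every alternative in which the gene could be tested, and 77 of 607 alternative values missed the threshold, with 0 reversed. Kept calls were Adamtsl5 between the tumour groups, Adamts10 and Mmp12 in deleted tumours against normal liver, and Adamts10, Adamts13, Adamts14, Adamtsl5, Mmp19, Mmp24, Mmp7 and Timp3 in floxed tumours against normal liver. For deleted against floxed tumours, 4 members were called, 2 without deleted tumours 2 and 5 and 2 to 4 with 1 tumour left out (2 without floxed tumour 3). All genes called numbered 1045, against 1954 with DESeq2, 1629 with all 15 samples in 1 fit and 589 to 1054 with 1 tumour left out (589 without deleted tumour 4). For floxed tumours against normal liver, 14 members and 6714 genes were called, 11 to 16 and 4860 to 6966 with 1 library left out. For deleted tumours against normal liver, 13 members were called, 21 without deleted tumours 3, 4 and 6 and 5 to 14 with 1 library left out (5 without any 1 normal liver); 4787 genes were called, and 2113 to 4912 with 1 library left out. The log2 difference of Hmgb1 was 0.24 in floxed tumours against normal liver (exact p = 0.155), 0.31 on library totals (exact p = 0.0476) and 0.10 to 0.42 with 1 library left out (0.42, exact p = 0.0357, without normal liver 3); in deleted tumours against normal liver it was -0.65 (exact p = 0.0119), -0.38 on library totals (exact p = 0.167) and -0.79 to -0.47 with 1 left out (-0.47, exact p = 0.143, without normal liver 3). Causes were not tested.

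Library totals in place of TMM moved the median log2 fold change of all genes by 0.18 between the tumour groups, with 79.3% rather than 57.2% of calls higher; upper-quartile factors moved it by 0.18 for floxed tumours against normal liver (63.5% rather than 51.2% higher). For deleted tumours against normal liver, 52.1% of calls were higher with TMM, 68.2% with upper-quartile factors (a shift of 0.15) and 73.7% on library totals (0.28). Other calls that ended with a tool or setting were Adamts15 in floxed tumours (all 15 samples in 1 fit, adjusted p = 0.131) and, with voom, Mmp13, Mmp27 and Timp1 in floxed tumours (adjusted p 0.0544 to 0.0713) and Mmp13, Mmp24, Timp1 and Timp3 in deleted tumours against normal liver (0.0509 to 0.159). In the last comparison, those of Mmp13, Adamts4 and Mmp23 ended with all 15 samples in 1 fit (0.0576 to 0.165), those of Mmp13 and Timp3 without the filter (0.0575 and 0.0563), and those of Adamts4 and Mmp23 without deleted tumours 2 and 5 (0.0610 and 0.0670). Whether the replicate numbers pair the samples was not settled. Same-numbered deviations correlated at -0.272 to 0.233 between the tumour groups, and such values cannot exclude a shared batch or handling. With the number as a block, calls of Mmp28 between the tumour groups and of Adamts13, Mmp19, Adamts7 and Mmp13 in deleted tumours against normal liver ended (adjusted p 0.0600 to 0.123), 3 members were called between the tumour groups, 15 in floxed and 9 in deleted tumours against normal liver, and 3055 genes in the last, against 3679 for the same 6 libraries unpaired. Low counts limit Mmp7, Mmp24 and Mmp28.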
